A study of Mus musculus with 8 samples.

Results

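The Hox genes encode homeodomain transcription factors that lie side by side in 4 clusters, Hoxa, Hoxb, Hoxc and Hoxd, and the peaks of KDM4B, H3K9me3 and histone H3 inside those clusters are described here. The members were chosen by position: every peak whose midpoint lay in a window of mouse build mm9, set at chromosome 6 from 52100 to 52215 kb (Hoxa), chromosome 11 from 96050 to 96235 kb (Hoxb), chromosome 15 from 102745 to 102875 kb (Hoxc) and chromosome 2 from 74495 to 74610 kb (Hoxd). The windows held 149 of the 88367 peaks in the 6 lists. All 149 came from the 2 largest lists. These were KDM4B in cells with the gene (48 of 32017 peaks) and H3K9me3 in cells without it (101 of 55306). The other 4 lists are small, with 943, 38, 35 and 28 peaks in the whole genome.

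The cells were primary mesenchymal stem cells from mouse bone marrow, and all of them were kept in osteogenic induction for 4 hours. The WT mice were Prx1Cre; Kdm4bw/w and the KO mice were Prx1Cre; Kdm4bf/f, so both genotypes carried the Cre transgene, which the Prx1 promoter drives in limb mesenchyme, and only the KO carried the floxed Kdm4b allele. The sources used here do not give ages, the number of mice behind a library or the share of unrecombined cells. Chromatin immunoprecipitation sequencing was done for KDM4B, H3K9me3 and H3, with 1 library per antibody and genotype, so no difference between libraries could be tested and every interval below covers counting error only. The H3 library of WT cells held 40420466 tags after duplicate filtering, and the depth of the other 5 is unknown. The labelled cell type could not be checked against marker genes from peak positions.

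In development, the order of the genes along a cluster follows the order of the body regions they pattern, and in the limb the high-numbered genes of the Hoxa and Hoxd clusters act from the shoulder towards the digits. The clusters are textbook targets of Polycomb repression, which uses methylation of lysine 27 of histone H3. H3K9me3 is the mark of another kind of silent chromatin, and KDM4B is an enzyme that takes methyl groups off lysine 9. Adult mesenchymal cells keep a Hox pattern that reflects the body region they came from.

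The 38 listed genes were placed in order, by the 3′ ends of their transcripts, with a RefSeq gene table of build GRCm38.p6. Because that build differs from mm9, the table was used for order only, and no peak was assigned to a single gene. On chromosome 6 the low-numbered genes lie at the lower coordinates, in the order Hoxa2, Hoxa3, Hoxa4, Hoxa5, Hoxa6, Hoxa7, Hoxa9, Hoxa10, Hoxa11 and Hoxa13, with Evx1 as the next coding gene outside. The other 3 clusters run the opposite way. Hoxb runs from Hoxb13, a gene of the caudal body and prostate, through Hoxb9, Hoxb8, Hoxb7, Hoxb6, Hoxb5, Hoxb4, Hoxb3 and Hoxb2 to Hoxb1, which patterns the hindbrain. Hoxc runs from Hoxc13, a gene of hair and nails, through Hoxc12, Hoxc11, Hoxc10, Hoxc9, Hoxc8, Hoxc6 and Hoxc5 to Hoxc4. Hoxd runs from Hoxd13, a digit gene, through Hoxd12, Hoxd11, Hoxd10, Hoxd9, Hoxd8, Hoxd4 and Hoxd3 to Hoxd1, and Evx2 lies outside Hoxd13.

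Promoter sequences were at hand for 22 of the 38 genes, too few to compare the clusters by base composition. The 250 bases before the start are printed for 3 genes that mark the ends of clusters at which KDM4B peaks were dense (Hoxa13 and Hoxd13) or lacking (Hoxd1). They are from RefSeq on GRCm38.p6, 5′ to 3′ on the gene's strand, with every CpG dinucleotide in capitals. Whether a peak covers any of them was not analysed here.
Hoxa13 (minus strand): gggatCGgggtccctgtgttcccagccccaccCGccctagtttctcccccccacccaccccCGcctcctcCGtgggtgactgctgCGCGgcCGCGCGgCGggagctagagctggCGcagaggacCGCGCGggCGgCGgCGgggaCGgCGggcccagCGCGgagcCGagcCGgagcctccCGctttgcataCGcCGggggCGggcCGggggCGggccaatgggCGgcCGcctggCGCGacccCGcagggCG
Hoxd13 (plus strand): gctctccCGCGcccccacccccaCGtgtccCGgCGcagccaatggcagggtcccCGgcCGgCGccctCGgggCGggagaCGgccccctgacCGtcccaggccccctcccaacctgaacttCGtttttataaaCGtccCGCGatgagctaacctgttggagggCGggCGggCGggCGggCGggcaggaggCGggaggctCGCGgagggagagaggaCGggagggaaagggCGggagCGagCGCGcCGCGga
Hoxd1 (plus strand): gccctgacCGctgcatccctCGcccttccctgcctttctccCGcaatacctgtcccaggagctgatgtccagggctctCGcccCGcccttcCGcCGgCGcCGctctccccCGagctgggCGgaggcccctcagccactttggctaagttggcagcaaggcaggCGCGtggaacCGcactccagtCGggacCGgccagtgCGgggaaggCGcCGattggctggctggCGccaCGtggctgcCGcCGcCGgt
The 3 promoters were alike in holding many CpGs, 35 in Hoxa13, 31 in Hoxd13 and 24 in Hoxd1, and G and C made up 80.0%, 74.4% and 71.6% of their bases.

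KDM4B in WT cells was called at 25 sites in the Hoxa window, 12 in Hoxb, 7 in Hoxd and 4 in Hoxc. Per Mb these were 217 peaks in Hoxa (95% Poisson interval 141 to 321), 64.9 in Hoxb (33.5 to 113), 60.9 in Hoxd (24.5 to 125) and 30.8 in Hoxc (8.38 to 78.8), against 12.5 over all chromosomes. The interval for Hoxa lay above those of the other 3, which overlapped one another, and only the interval of Hoxc reached down to the mean of the chromosomes. These intervals treat neighbouring peaks as independent, although many peaks of Hoxa lay within 1 kb of the next. Merging peaks within 1 kb left 22 KDM4B regions in the 4 windows. The separation of Hoxa by number therefore holds for peaks as called, and was not examined after merging. Together the 48 peaks made a density of 88.1 per Mb (64.9 to 117), 7.06 times that mean. Peaks cover very unequal lengths, so the covered sequence set Hoxa further apart. KDM4B peaks covered 33.9 kb of Hoxa, or 29.5% of the window, against 3.88% of Hoxb, 2.96% of Hoxd, 1.81% of Hoxc and 0.941% of all chromosomes.

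**Figure D1:**
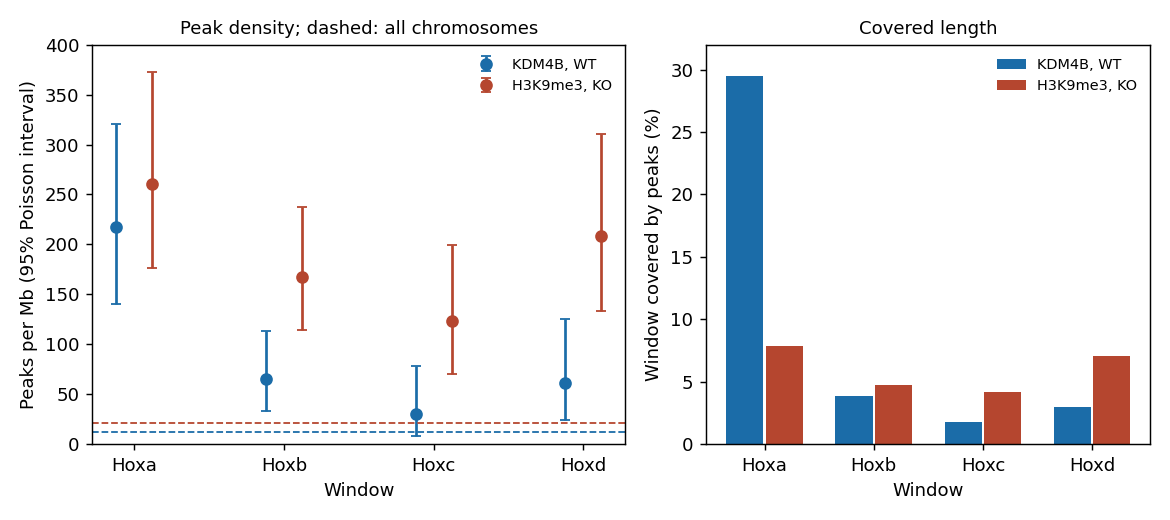
Left: peaks per Mb in each Hox window (points) with 95% Poisson intervals (bars), for KDM4B in WT and H3K9me3 in KO cells; dashed lines give the mean over all chromosomes in the same colours. Right: the percent of each window covered by peaks, where KDM4B reaches 29.5% in Hoxa and stays at 3.88% or less in the other windows.

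To set these counts against the clustering of peaks elsewhere, the chromosomes were cut into tiles as long as each window. Of 22317 tiles of 115 kb, 0.251% held at least 25 KDM4B peaks, as Hoxa did, and 0.0717%, or 16 tiles, had at least as much covered length. At least 7 peaks, as in Hoxd of the same length, were held by 6.25% of tiles, and as much covered length by 9.36%. For the 185 kb of Hoxb, 5.06% of 13867 tiles had as many peaks and 7.07% as much covered length. For the 130 kb of Hoxc the shares were 14.9% and 14.6% of 19741 tiles. The Hoxa window thus stood near the top of the genome for KDM4B, and the Hoxc window was an ordinary peak-bearing stretch. These shares are descriptions and not tests.

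**Figure D2:**
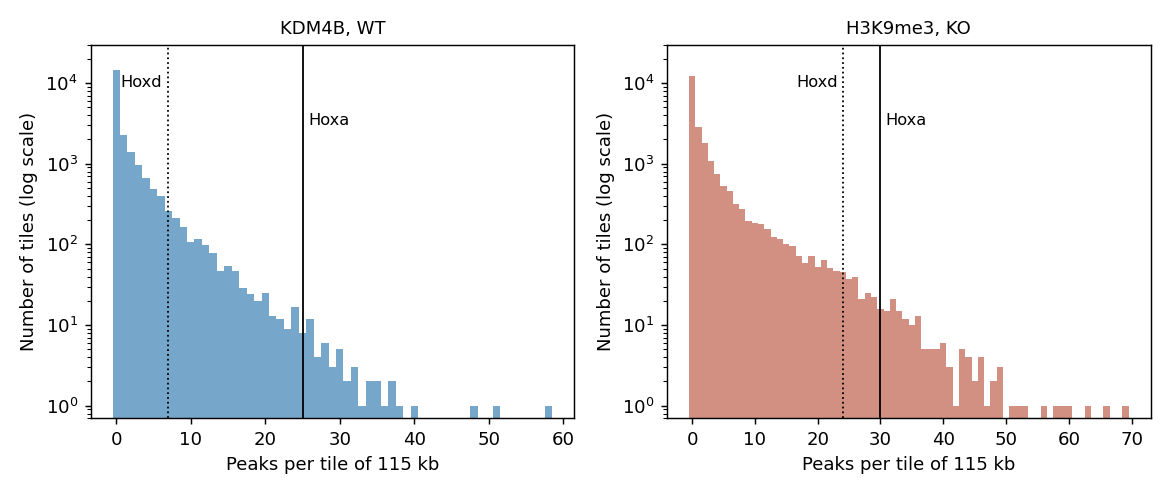
Number of tiles of 115 kb (log scale) by the peaks they hold, for KDM4B in WT (left) and H3K9me3 in KO cells (right). The solid line marks Hoxa, at 25 and 30 peaks, and the dotted line marks Hoxd, at 7 and 24 peaks; for KDM4B the lines lie far apart and for H3K9me3 they lie close together.

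Within Hoxa, KDM4B lay mainly towards the high-numbered genes. Of the 25 peaks, 21 lay on the higher-coordinate side of the middle of the window, covering 31.4 kb, and 4 on the lower side, covering 2.55 kb. The lower-side peaks were 1 at chromosome 6 from 52100809 to 52101377 and a group of 3 between 52108283 and 52110554. From there no peak was called for 51.1 kb, from 52110555 to 52161675, which is 44.5% of the window. Beyond that stretch peaks followed each other closely to the edge on the Hoxa13 side.

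That side of Hoxa held all 5 KDM4B peaks of 3 kb or more found in the 4 windows, out of the 25 in Hoxa, where 1.88% of the whole list is that wide. The widest ran from 52178023 to 52185013 with 6.99 kb, and only 78 of the 32017 peaks of the list, 0.244%, were at least as wide. It was followed by 52194546 to 52198842 with 4.30 kb and 52202257 to 52206036 with 3.78 kb. The other two were 3.39 kb, from 52206563 to 52209956, and 3.23 kb, from 52174526 to 52177754. These 5 domains lay within 35.4 kb and made up 63.9% of the KDM4B-covered sequence of Hoxa. Peaks of 1 kb or more numbered 8 in Hoxa, 1 in Hoxb, 1 in Hoxd and 0 in Hoxc, or 10 of 48, near the 19.9% of the whole list. The median width over the 4 windows, 494 bp, was also near that of the list, 509 bp.

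In Hoxb, KDM4B formed 2 small groups and 2 isolated peaks. A group of 5 lay towards Hoxb13, between 96061654 and 96066505 on chromosome 11, and it made the fullest bin of 10 kb, from 96060001 to 96070000. A second group of 5 lay between 96138457 and 96147909 and held the widest peak of the window, 1.38 kb from 96146013 to 96147392. The next widest were 0.987 kb, from 96062257 to 96063243, and the isolated peak of 0.782 kb nearest Hoxb1, from 96214503 to 96215284. The groups were separated by 72.0 kb without a peak, from 96066506 to 96138456, and 14 of the 19 bins of 10 kb held none.

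In Hoxc and Hoxd, KDM4B was limited to a short stretch. The 4 peaks of Hoxc lay within 10 kb of each other, between 102786193 and 102796047 on chromosome 15, the widest being 0.963 kb, from 102795085 to 102796047. The next were 0.701 kb, from 102792344 to 102793044, and 0.383 kb, from 102786193 to 102786575. No peak was called in the 79.0 kb from 102796048 to the edge on the Hoxc4 side, nor in the first 41.2 kb on the Hoxc13 side.

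The 7 peaks of Hoxd all lay at the Hoxd13 end. Of these, 5 were between 74495006 and 74498534 on chromosome 2, in the outermost 4 kb of the window, on the side where Evx2 is the next gene. Without gene positions in mm9, it cannot be told whether these 5 lie at Hoxd13, at Evx2 or between them. The 5 included the 2 widest, 1.25 kb from 74495006 to 74496257 and 0.595 kb from 74496391 to 74496985. The third, 0.376 kb from 74497041 to 74497416, was also among them. The last 2 lay between 74505950 and 74507210. The remaining 102.8 kb of the window, from 74507211 to 74610000 and up to the Hoxd1 side, had no KDM4B peak. Beyond that edge the nearest KDM4B peak was 813 kb away.

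**Figure D3:**
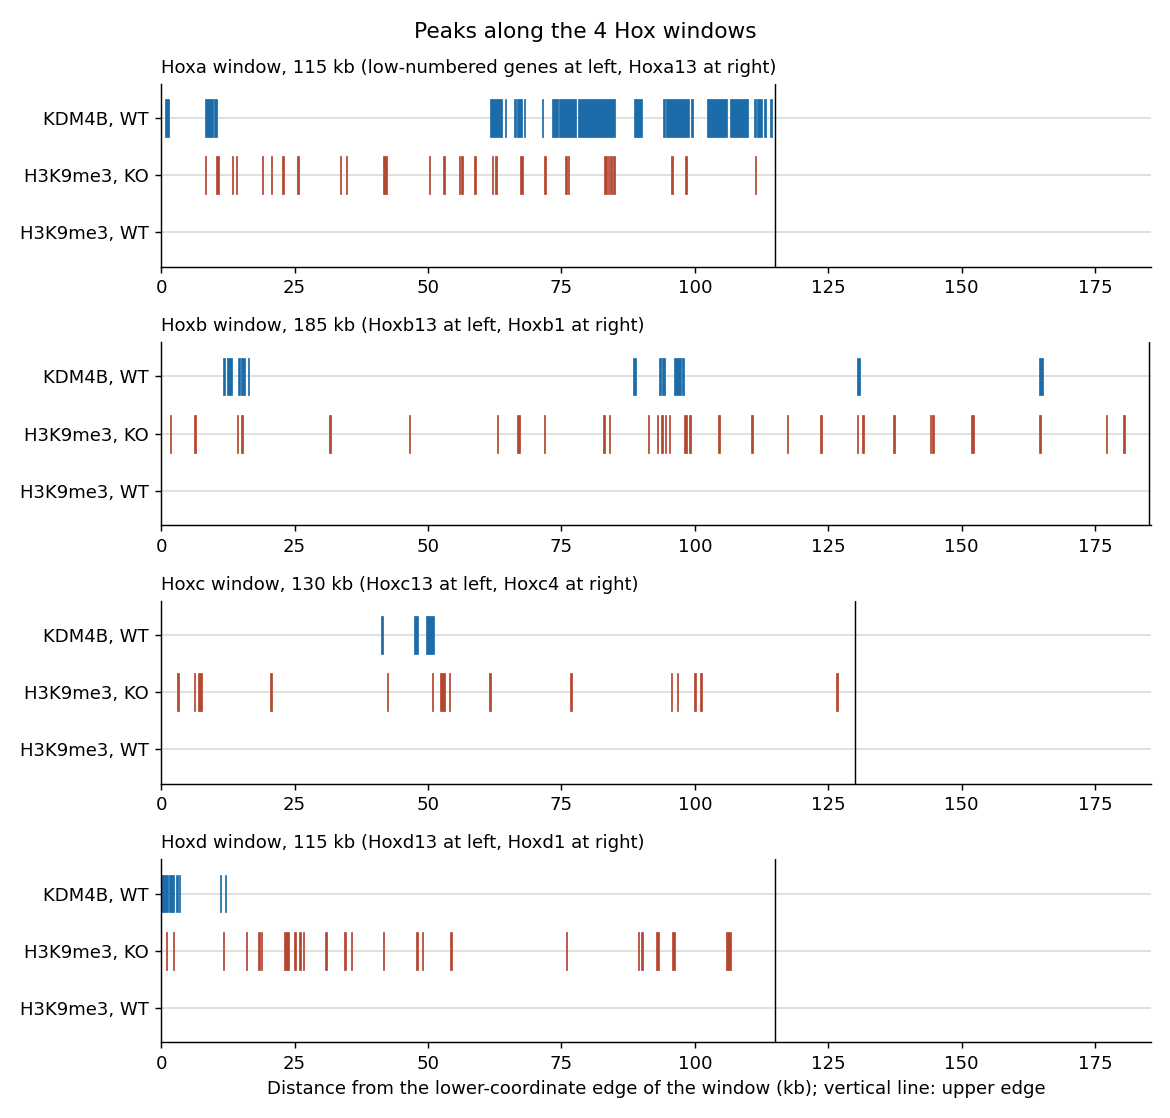
Peaks along each window, by distance from the lower-coordinate edge in kb; rectangles span the called peaks, drawn with a thin outline that widens the narrowest slightly, and vertical lines mark the upper edge. KDM4B in WT cells fills the Hoxa13 side of Hoxa and only the Hoxd13 end of Hoxd, H3K9me3 in KO cells is scattered along all 4 windows, and the H3K9me3 row of WT cells is empty.

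H3K9me3 in KO cells was found along most of each cluster. It was called at 31 sites in Hoxb, 30 in Hoxa, 24 in Hoxd and 16 in Hoxc. Per Mb these were 261 peaks in Hoxa (95% Poisson interval 176 to 372), 209 in Hoxd (134 to 311), 168 in Hoxb (114 to 238) and 123 in Hoxc (70.3 to 199.9), and these 4 intervals overlapped one another. All 4 lay above the 21.5 per Mb of all chromosomes, and together the density was 185 per Mb (151 to 225), 8.61 times that mean. The peaks covered 7.86% of Hoxa, 7.10% of Hoxd, 4.78% of Hoxb and 4.16% of Hoxc, against 0.665% of all chromosomes.

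Against tiles of the same length, each window ranked high for H3K9me3 in KO cells. As many peaks as in Hoxa were held by 0.708% of tiles, as in Hoxd by 1.56%, as in Hoxb by 2.45% and as in Hoxc by 4.57%. As much covered length was held by 0.842%, 1.14%, 2.80% and 3.72% in the same order. Tiles with at least as many peaks of both lists as the window made up 0.0224% for Hoxa, or 5 tiles, 0.672% for Hoxd, 0.923% for Hoxb and 2.65% for Hoxc. Few KDM4B peaks beside many KO H3K9me3 peaks was not rare: among the 348 tiles with at least 24 KO peaks, as in Hoxd, 61.5% held at most 7 KDM4B peaks. The matching share was 48.7% for Hoxc, 65.0% for Hoxb and 96.8% for Hoxa, whose 25 KDM4B peaks few such tiles exceeded.

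Along the windows, KO H3K9me3 peaks lay on both sides of the middle, 16 lower and 14 higher in Hoxa, 12 and 19 in Hoxb, 10 and 6 in Hoxc, and 17 and 7 in Hoxd. At least 1 peak was present in 11 of the 12 bins of 10 kb in Hoxa, 17 of 19 in Hoxb, 9 of 13 in Hoxc and 10 of 12 in Hoxd. KDM4B occupied 8, 5, 2 and 2 of the same bins. The fullest bins for the mark held 7 peaks in Hoxb, from 96140001 to 96150000 around the second KDM4B group, 5 in Hoxa, from 52150001 to 52160000, 4 in Hoxc, from 102745001 to 102755000 at the Hoxc13 side, and 4 in each of 3 bins of Hoxd, which start at 74505001, 74515001 and 74585001. The bin of Hoxa lay inside the stretch without KDM4B.

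The KO peaks were narrow. Their median width was 271 bp, near the 256 bp of the whole list, and 19 of 101, or 18.8%, had the list's smallest width of 199 bp, against 20.8% of the list. None reached 1 kb. The widest was in Hoxd near the Hoxd1 side, from 74600898 to 74601840 with 943 bp, and 0.696% of the list was at least as wide. It was followed by 892 bp in Hoxc, from 102797212 to 102798103, 881 bp in Hoxd, from 74518092 to 74518972, and 720 bp in Hoxb, from 96201668 to 96202387. None of these 4 overlapped a KDM4B peak. The Hoxc one lay 1.16 kb from the widest KDM4B peak of that window, and the widest in Hoxd lay 93.7 kb from any. The next widest were 520 bp, from 96116705 to 96117224, and 433 bp, from 96148020 to 96148452, in Hoxb, and 486 bp, from 102844753 to 102845238, and 403 bp, from 102806432 to 102806834, in Hoxc. In Hoxd the third was 590 bp, from 74590632 to 74591221. These 5 overlapped no KDM4B peak either, and the one of 433 bp lay 0.110 kb from one. In Hoxa the widest was 574 bp, from 52182949 to 52183522, inside the widest KDM4B domain.

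The remaining 4 lists had no peak in any window. For H3K9me3 in WT cells the count was 0 of 943 peaks, which allows a share of up to 0.318%. At the mean density of that list, 0.200 peaks would fall in the 4 windows, and WT peaks of any number were held by 1.87% of tiles as long as Hoxa and Hoxd, 2.07% as long as Hoxc and 2.85% as long as Hoxb. The absence therefore does not set the clusters apart from most of the genome. KDM4B in KO cells had 0 of 35 peaks, H3 in WT 0 of 38 and H3 in KO 0 of 28, which allow shares of up to 8.57%, 7.89% and 10.7%, with less than 0.01 peaks due at the mean density of each list. The 48 KDM4B peaks met the WT mark in 0 cases, against 0.0531% of that whole list.

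KDM4B peaks of WT cells and H3K9me3 peaks of KO cells overlapped at some sites and lay close together at more. Of the 48 KDM4B peaks, 17 overlapped a KO peak by at least 1 bp, or 35.4% (95% exact binomial interval 22.2 to 50.5%), against 22.8% of the whole list, a value the interval contains. By cluster these were 8 of 25 in Hoxa, 6 of 12 in Hoxb, 2 of 7 in Hoxd and 1 of 4 in Hoxc, and their intervals all overlapped. With peaks within 1 kb counted as overlapping, the share was 35 of 48, or 72.9%, against 34.6% of the whole list. All 48 had a KO peak within 5 kb, against 52.4% of the whole list, and the longest distance was 4.58 kb, in Hoxa. KO peaks numbered 185 per Mb in the windows against 21.5 over all chromosomes. Any site in the windows is therefore likelier to have a KO peak nearby, and closeness to KDM4B beyond that density was not tested.

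Seen from the mark, the clusters ranked differently. Of the 101 KO peaks, 23 overlapped KDM4B, or 22.8% (15.0 to 32.2%), against 15.7% of the whole list, which the interval also contains. In Hoxa these were 14 of 30, or 46.7% (28.3 to 65.7%), whereas in the other 3 windows together they were 9 of 71, or 12.7% (5.96 to 22.7%). The share over the whole list lay below the interval of Hoxa and inside that of the other 3. The single shares were 6 of 31 in Hoxb, 2 of 24 in Hoxd and 1 of 16 in Hoxc. Within 5 kb of KDM4B lay 39 of the 101, or 38.6%, against 31.5% of the list, and more than 10 kb away lay 50, or 49.5%, against 59.6%. Without Hoxa these shares were 29.6% and 59.2%, near those of the list. By window, the share more than 10 kb away was 26.7% in Hoxa, 38.7% in Hoxb and 75.0% in both Hoxc and Hoxd. The median distance was 1.39 kb in Hoxa, 6.28 kb in Hoxb, 22.7 kb in Hoxd and 33.8 kb in Hoxc, against 17.5 kb over the whole list. The share of the window that KDM4B peaks themselves fill falls in the same order.

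**Figure D4:**
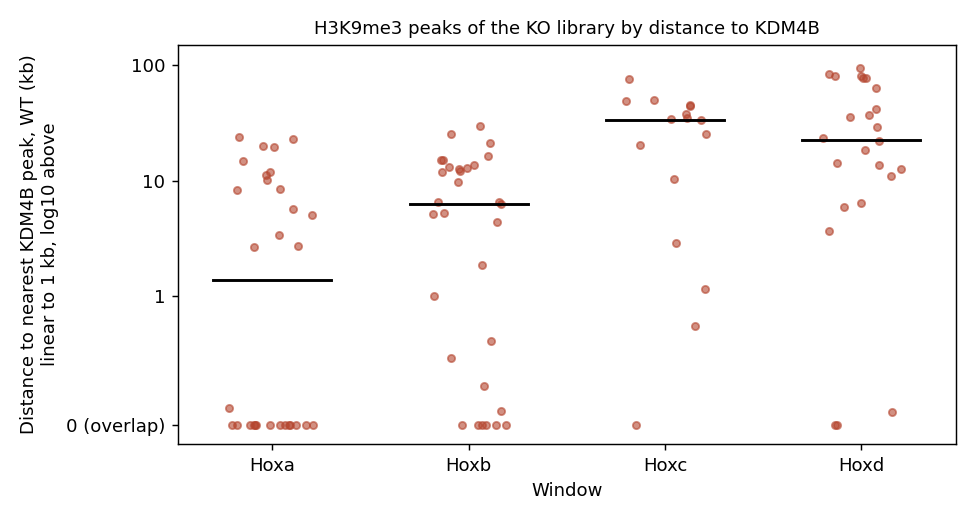
Distance in kb from each KO H3K9me3 peak (points) to the nearest KDM4B peak of WT cells, by window, on an axis linear to 1 kb and logarithmic above; short bars are medians and points at 0 overlap a KDM4B peak. Medians are 1.39 kb in Hoxa, 6.28 kb in Hoxb, 33.8 kb in Hoxc and 22.7 kb in Hoxd.

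Peaks of the mark were counted inside and outside KDM4B-covered sequence to allow for that difference in cover. Over the 4 windows, 21 KO midpoints fell in 46.9 kb of KDM4B-covered sequence, 4.48 per 10 kb (95% Poisson interval 2.77 to 6.85), and 80 fell in the other 498 kb, 1.61 per 10 kb (1.27 to 2.00). Over all chromosomes the densities were 2.99 per 10 kb inside and 0.189 outside. The density inside KDM4B peaks thus lay near that of the genome, with an interval that contains it, and the density outside them lay far above it. The intervals inside and outside over the 4 windows did not overlap. Within Hoxa alone the values were 3.83 inside (2.04 to 6.55) and 2.10 outside (1.22 to 3.36), and these intervals overlapped. In Hoxb they were 6.97 (2.26 to 16.3) and 1.46 (0.955 to 2.14), without overlap, from 5 midpoints inside. Hoxc had 4.25 inside and 1.18 outside, and Hoxd 5.87 and 1.97, from 1 and 2 midpoints inside and with overlapping intervals.

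The largest stretches free of KDM4B were not free of the mark. The 51.1 kb stretch of Hoxa held 15 KO peaks covering 4.06 kb, the 72.0 kb of Hoxb held 7, the 79.0 kb of Hoxc held 9 and the 102.8 kb of Hoxd held 21 covering 7.56 kb. The last includes 21 of the 24 KO peaks of Hoxd. Conversely, the longest stretch of Hoxa without a KO peak, 12.8 kb from 52198443 to 52211230, held 3 KDM4B peaks covering 7.63 kb, among them the domains of 3.78 and 3.39 kb. In the other windows the longest stretches without a KO peak, 16.3 kb in Hoxb, 25.1 kb in Hoxc and 21.4 kb in Hoxd, had no KDM4B peak either. The second longest, 16.1 kb in Hoxb and 21.6 kb in Hoxc, held 1 KDM4B peak each, and that of Hoxd, 13.2 kb, held 0.

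The sites where both met were unevenly shared among the wide domains of Hoxa. The 6.99 kb domain overlapped 4 KO peaks, all in its last part, from 52182949 to 52184951, and the domains of 4.30 and 3.23 kb overlapped 2 each. The domains of 3.78 and 3.39 kb, nearest the Hoxa13 side, overlapped none. In Hoxa the 5 widest shared KO peaks were the one of 574 bp given above, 530 bp from 52167179 to 52167708, 455 bp from 52110305 to 52110759, 430 bp from 52184074 to 52184503 and 349 bp from 52195556 to 52195904.

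In Hoxb the widest shared KO peak was 414 bp, from 96064999 to 96065412, within the KDM4B group towards Hoxb13. It was followed by 368 bp, from 96143714 to 96144081, and 310 bp, from 96180347 to 96180656. Narrower shared peaks lay at 96064186 to 96064468 and 96144333 to 96144553, and that of 96214562 to 96214768 lay in the isolated KDM4B peak nearest Hoxb1. In Hoxc the only shared KO peak lay in the widest KDM4B peak, from 102795755 to 102795989. In Hoxd both shared KO peaks had the smallest width and lay in the outermost group, from 74495856 to 74496054 and from 74497200 to 74497398.

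Peaks of both lists were sparser outside the windows than inside. In the 200 kb on each side of the 4 windows, KDM4B peaks numbered 27, or 16.9 per Mb, against 88.1 inside, and KO H3K9me3 peaks numbered 51, or 31.9 per Mb, against 185 inside. Each window had a higher density than its own flanks for both lists. For KDM4B these were 217 against 17.5 per Mb in Hoxa, 64.9 against 30.0 in Hoxb, 30.8 against 10.0 in Hoxc and 60.9 against 10.0 in Hoxd. For the mark they were 261 against 27.5, 168 against 32.5, 123 against 55.0 and 209 against 12.5. Some flanks were one-sided. In Hoxb all 12 flanking KDM4B peaks lay on the Hoxb13 side and 0 on the Hoxb1 side, so on the Hoxb13 side the density hardly fell. In Hoxc 6 flanking KO peaks lay on the Hoxc13 side and 16 on the Hoxc4 side. The flank beyond the Hoxd1 side had 0 peaks of either list, and the nearest KO peak on that side was 832 kb away.

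For KDM4B, the edges of the windows cut through peak-bearing sequence in 2 places. At the Hoxd13 side of Hoxd, the first KDM4B peak inside, of 1252 bp, began within 0.01 kb of the edge, and the nearest outside, of 409 bp, was 2.95 kb away. On that side a KO peak of 667 bp lay 0.349 kb outside. At the Hoxa13 side of Hoxa, the last KDM4B peak inside, of 266 bp, was 0.607 kb from the edge, and the nearest outside, of 444 bp, was 2.89 kb away. At the other edges the nearest KDM4B peak outside was 11.0 kb or more away. A KO peak of 235 bp lay 3.77 kb outside the lower-coordinate edge of Hoxa.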

How the data were processed

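Peak positions were taken from the 6 lists that the authors deposited, 1 per antibody and genotype, and 2 input samples were not analysed here. Per the submitters' processing notes, the tools were Bowtie, SAMtools and, as peak callers, MACS for KDM4B and MACS2 for the other antibodies, and the builds listed are mm9 and hg19. The H3 WT list came from MACS2 2.1.4 with a q-value threshold of 0.05 and a control, per the file headers. The sources used here do not otherwise give versions, thresholds, controls, pooling, the use of the yeast spike-in, or which KDM4B antibody or instrument served which library, so peak numbers can reflect any of them. The lists other than H3 WT hold chromosome, start and end with no height or score.

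The positions match mm9: the last peak on chromosome 7 ends at 152508057. Starts were read as counting from 0 and are printed counting from 1. A peak belonged to a window by its midpoint, and overlap meant at least 1 bp. Shares carry 95% exact binomial (Clopper-Pearson) and counts exact Poisson intervals, which treat neighbouring peaks as independent. Densities and tiles use each chromosome from its first to its last peak over the 6 lists, without the mitochondrial sequence. A count of 0 is given with an upper limit of 3 counts, which is lower than the 3.69 of the exact Poisson interval. Regions named are the 3 widest peaks of KDM4B WT and H3K9me3 KO per window, shared KO peaks (the 5 widest), the fullest bins of 10 kb and the longest stretch without a KDM4B peak. The stretches without KO peaks, and further KDM4B peaks given as groups or domains, were chosen after their values were seen. The windows, members and comparisons were chosen with earlier results of these data known.

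Alternatives were windows widened by 10 kb, any overlap with the window, peaks at least as wide as their list's median, merging within 1 kb, tiles shifted by 50% of their length, and overlap counted within 1 kb or over 50% of the shorter peak. Chosen after seeing the data were leaving out Hoxa and the width limit for positions. Python 3.11.15, numpy 2.4.6, scipy 1.17.1 and matplotlib 3.10.9 were used. The functions were tested on simulated data, and bedtools 2.31.1 gave the same count, 7284, of KDM4B WT peaks overlapping H3K9me3 KO peaks.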

Additional observations from a re-analysis of the deposited data

How the results depend on the processing

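The counts of 0 for the remaining 4 lists were also 0 in windows widened by 10 kb, by any overlap with the window, with wide peaks only and after merging. Keeping only peaks at least as wide as the median of their list lowered the counts by construction, to 24 for KDM4B WT and 57 for H3K9me3 KO. That width limit changed the side with more KO peaks only in Hoxa, where the higher-coordinate side then held 11 of 17, against 14 of 30. Merging peaks within 1 kb left 22 KDM4B WT regions, against 71 for H3K9me3 KO. Without Hoxa there were 23 KDM4B peaks, and the share of KO H3K9me3 peaks overlapping KDM4B was 12.7%. With peaks within 1 kb counted as overlapping, 72.9% of the KDM4B peaks met a KO peak, against 34.6% of the whole list, where KO peaks are sparser than in the windows. All other alternatives run left counts and covered length within 1.5 times the reported value, and shares within their interval. No paired analysis was possible because each antibody and genotype has 1 library. With 1 library each, no replicate could be left out, and since the depth of 5 libraries is unknown, the peak numbers of the genotypes cannot be put on a common scale. A stricter score threshold was not run, as no H3 WT peak lies in a window and the other lists hold no score.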
